A study of Mus musculus with 43 samples.

Results

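The annexins are a family of calcium-dependent, phospholipid-binding proteins, and 10 of their genes, Anxa1 to Anxa9 and Anxa11, were followed in mouse embryonic stem cells labelled control or MTF2 knockout. They are 10 of the 12 annexin symbols among the 22462 genes of the expression table, and they were chosen by symbol with their control and knockout FPKM (fragments scaled to transcript length and library size) already in view. The comparison between these groups is therefore given as a description of the members. Annexin A2 and annexin A4 transcripts stood several fold higher in knockout cells, annexin A7 transcripts were higher, annexin A11 transcripts were lower, and those of annexins A5 and A6 stood at nearly equal levels.

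All cells were E14, the ES-E14TG2a mouse embryonic stem cell line, grown with LIF on plates coated with gelatin. MTF2 is a Polycomb-like protein that brings Polycomb repressive complex 2, the H3K27 methyltransferase, to CG-rich DNA. The series held 43 samples, of which 6 were RNA-seq libraries, 3 of control and 3 of MTF2 knockout cells with no other allele or agent named in the labels. The labels do not say how many knockout clones were used, and the 36 ChIP-seq samples, some from cells with wild-type or K339A MTF2 put back, were not analysed here. The authors' deposited table gives 1 FPKM value per gene and group, pooled over 3 libraries that the series describes as biological replicates, so no SD, no n per value and no depth per library can be given for any FPKM below. For Mtf2 itself the authors' deposited table gives 74.3 FPKM in control cells and 44.7 FPKM in the cells labelled knockout (Cuffdiff q = 0.0496), and its interval from the deposited statistic, 0.327 to 1.11 of the control level, includes no difference. Its transcript was thus present in the cells labelled knockout, and the call does not hold at a q of 0.01. Mtf2 shares its locus entry with Tmed5, and how MTF2 was removed is not given in the labels. For the labelled cell type, 14 markers of pluripotency, not all of them particular to the naive state, summed to 4829 FPKM in control cells and 4466 FPKM in the knockout. Of these, 13 were tested, 3 were called higher (Klf5, Tfcp2l1 and Tdgf1) and 1 lower (Utf1), beside 6.90% and 6.03% of all tested genes. These calls compare the groups and do not check the cell type. The 1 not tested did not pass 0.864 FPKM in either group, and none of the 14 was listed at 0 in both groups.

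Annexins share a core of repeats that binds negatively charged phospholipids when calcium rises, and differ in the N-terminal stretch before it, which carries the sites for partner proteins. Small EF-hand proteins of the S100 and penta-EF-hand families are the best known of these partners. Through these contacts annexins help to organise the plasma membrane, seal membrane wounds, and move vesicles and granules. In stem cell cultures the family is best known through annexin A5, which is used as a labelled protein to stain dying cells.

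The promoters of 4 members are printed because Polycomb-like proteins bind DNA with unmethylated CG dinucleotides, and because these members include CG-rich and CG-poor windows and both directions of call. Each is the 250 bases before the RefSeq transcription start on GRCm38.p6, written 5′ to 3′ on the gene's strand, with every CG in capitals. Anxa2 is on the plus strand at chr9:69453433-69453682, Anxa4 on the minus strand at chr6:86793585-86793834, Anxa11 on the plus strand at chr14:25841905-25842154 and Anxa1 on the minus strand at chr19:20390672-20390921.

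Anxa2: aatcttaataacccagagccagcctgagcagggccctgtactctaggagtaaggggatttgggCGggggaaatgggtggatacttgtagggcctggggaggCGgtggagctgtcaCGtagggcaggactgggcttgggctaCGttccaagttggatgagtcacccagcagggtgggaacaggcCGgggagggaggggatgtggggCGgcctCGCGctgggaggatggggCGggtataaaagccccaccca

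Anxa4: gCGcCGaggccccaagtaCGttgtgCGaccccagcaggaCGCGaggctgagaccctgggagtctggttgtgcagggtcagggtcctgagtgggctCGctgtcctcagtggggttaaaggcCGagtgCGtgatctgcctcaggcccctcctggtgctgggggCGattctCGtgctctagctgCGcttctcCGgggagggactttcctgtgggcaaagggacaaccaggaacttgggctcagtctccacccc

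Anxa11: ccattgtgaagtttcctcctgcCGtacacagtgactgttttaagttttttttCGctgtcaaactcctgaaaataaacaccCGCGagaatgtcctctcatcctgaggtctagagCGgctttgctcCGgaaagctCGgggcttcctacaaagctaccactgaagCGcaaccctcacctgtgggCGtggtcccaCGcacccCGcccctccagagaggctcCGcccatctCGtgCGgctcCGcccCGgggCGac

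Anxa1: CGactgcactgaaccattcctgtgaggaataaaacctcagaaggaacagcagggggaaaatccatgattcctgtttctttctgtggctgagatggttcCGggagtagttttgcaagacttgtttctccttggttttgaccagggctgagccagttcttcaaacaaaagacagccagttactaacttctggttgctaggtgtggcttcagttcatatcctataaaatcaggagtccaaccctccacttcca

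The Anxa11 window held 17 CG, the Anxa4 window 13, the Anxa2 window 9 and the Anxa1 window 2. The median over all 32851 RefSeq windows of this length was 6 CG, with quartiles of 2 and 16. RefSeq gave 11 windows for 8 members (Anxa1, Anxa2, Anxa4, Anxa5, Anxa7, Anxa8, Anxa9 and Anxa11), of which 6 were above that median. Windows above the median occurred in members of every call: Anxa4, called higher, Anxa11, called lower, and Anxa5, not called and with 13 CG. The windows of Anxa1 and Anxa8, which did not pass 1.05 FPKM in either group, held 2 and 4 CG. Anxa4, Anxa7 and Anxa9 each have a CG-rich window, with 13, 16 and 30 CG, and a CG-poor one, with 2, 2 and 3 CG. The start of the Anxa9 window with 30 CG lies 8004 bases outside the locus entry of the gene. That of the Anxa8 window lies 34853 bases inside its entry.

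A search on both strands gave few other short patterns. TGANTCA, the AP-1 pattern, was found in 1 of the 11 windows, that of Anxa2, and in 6.75% of all windows. TATAAA was found in the Anxa2 and Anxa1 windows and in 12.4% of all windows. AGATAA, a form of the GATA pattern, was found once, in the Anxa4 window that is not printed, whose start lies 18470 bases inside the locus entry, and in 9.99% of all windows. GCGC, which overlaps the CG count, was in 7 of the 11 windows and in 42.2% of all windows. A match describes the letters of a window and is not a measured binding site.

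Of the 10 members, 7 were tested by the authors' Cuffdiff run and 3 (Anxa1, Anxa8 and Anxa9) were not. At a Cuffdiff q of 0.05, 3 members were called higher (Anxa2, Anxa4 and Anxa7), 1 was called lower (Anxa11) and 3 were not called (Anxa3, Anxa5 and Anxa6). Over all 11362 tested genes, 6.90% were called higher and 6.03% lower, and nothing is read from the members' share because this contrast chose them. Knockout FPKM exceeded control FPKM in 7 of the 10 members, in 5 of the 7 tested members, and in 5659 of the 11362 tested genes. The median log2 ratio, computed with 0.5 FPKM added to each value, was 0.78 over the 10 members and -0.0035 over all tested genes. Over the 7 tested members it was 0.95. The ratios of the 3 members not tested depend strongly on the 0.5 FPKM added.

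**Figure D1:**
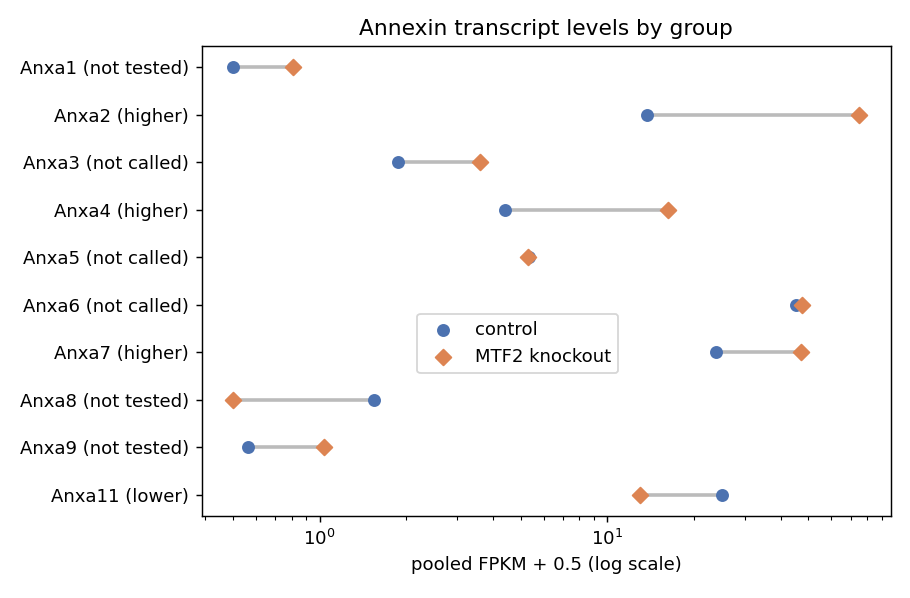
Pooled FPKM of each annexin gene in control cells (circles) and MTF2 knockout cells (diamonds), plotted as FPKM + 0.5 on a log axis, with the authors' call beside each name. Anxa2 and Anxa4 lie farthest to the right of their control values among tested members, Anxa11 lies to the left of its own, and the points of Anxa5 and Anxa6 overlap.

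Anxa2 had the largest fold among the 7 tested members. Its product binds S100A10 through its N-terminus, forming a complex under the plasma membrane that links actin and phospholipids and binds plasminogen at the cell surface. Anxa2, on chromosome 9 from 69453620 to 69491795 (mm10), measured 13.2 FPKM in control cells and 74.5 FPKM in the knockout (authors' deposited table, Cuffdiff q = 0.0012). That is 5.64-fold higher in knockout cells. Its q is the smallest the authors deposited and is shared by 472 genes, so it does not rank them. The deposited test statistic is taken here as the log ratio over its error, which gives a 95% interval of 2.73 to 11.7-fold. Of all tested genes, 1.35% had a log2 ratio at or above that of Anxa2. Its level moved from above 54.1% of tested genes in control cells to above 88.4% in knockout cells.

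Anxa4, an annexin abundant in many epithelia that assembles into ordered arrays on membranes, had the next largest fold among the tested members. Its gene, on chromosome 6 from 86736840 to 86793584 (mm10), measured 3.89 FPKM in control cells and 15.7 FPKM in the knockout (authors' deposited table, Cuffdiff q = 0.0012). It was 4.04-fold higher in knockout cells, with a 95% interval of 1.51 to 10.8-fold from the deposited statistic. With a normal p from that statistic, adjusted over all tested genes, its q was 0.206 and the call was lost. Over 10807 genes, the authors' p gave a normal z 1.74 times that statistic at the median, so normal p tend to be larger. How many other genes lose their call this way is not given here. Of all tested genes, 2.86% had a log2 ratio at or above that of Anxa4. The intervals of Anxa2 and Anxa4 overlap over most of their length.

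Anxa7 and Anxa11 moved in opposite directions. Their products both carry a long, flexible N-terminal region. Annexin A7, also called synexin, binds the penta-EF-hand protein sorcin, and annexin A11 binds the penta-EF-hand protein ALG-2 and tethers RNA granules to lysosomes. Anxa7, on chromosome 14 from 20455261 to 20480133 (mm10), measured 23.3 FPKM in control cells and 46.4 FPKM in the knockout (authors' deposited table, Cuffdiff q = 0.0012), which is 1.99-fold higher with an interval of 1.13 to 3.50-fold. With a normal p from the deposited statistic its adjusted q was 0.379, and this call too was lost. Anxa11, on chromosome 14 from 25842156 to 25886804 (mm10), measured 24.6 FPKM in control cells and 12.5 FPKM in the knockout (authors' deposited table, Cuffdiff q = 0.0308). It was 1.97-fold lower in knockout cells, but the interval of its ratio from the deposited statistic, 0.239 to 1.08 of the control level, includes no difference. The Anxa11 call was also lost at a q of 0.01 and with the normal p (adjusted q 0.709). Control cells held nearly equal levels of both transcripts, with 0.948 Anxa7 FPKM per Anxa11 FPKM, and knockout cells held 3.71.

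Anxa6 and Anxa5 stood at similar levels in the groups. Annexin A6 is built from a duplicated core and acts in cholesterol and endosome traffic, and annexin A5 binds phosphatidylserine. Anxa6, on chromosome 11 from 54979108 to 55033445 (mm10), measured 44.7 FPKM in control cells and 47.0 FPKM in the knockout (authors' deposited table, Cuffdiff q = 0.882). Its ratio of 1.05 has an interval of 0.613 to 1.80, so a change as large as that of Anxa2 or Anxa4 lies outside it. Anxa5, on chromosome 3 from 36448923 to 36475894 (mm10), measured 4.83 FPKM in control cells and 4.79 FPKM in the knockout (authors' deposited table, Cuffdiff q = 0.989). Its interval, 0.313 to 3.13 of the control level, is wide, so it does not exclude a change of up to about that size in either direction. Anxa3, on chromosome 5 from 96793385 to 96845966 (mm10), measured 1.37 FPKM in control cells and 3.11 FPKM in the knockout (authors' deposited table, Cuffdiff q = 0.590), and its 2.27-fold ratio has an interval of 0.282 to 18.3.

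**Figure D2:**
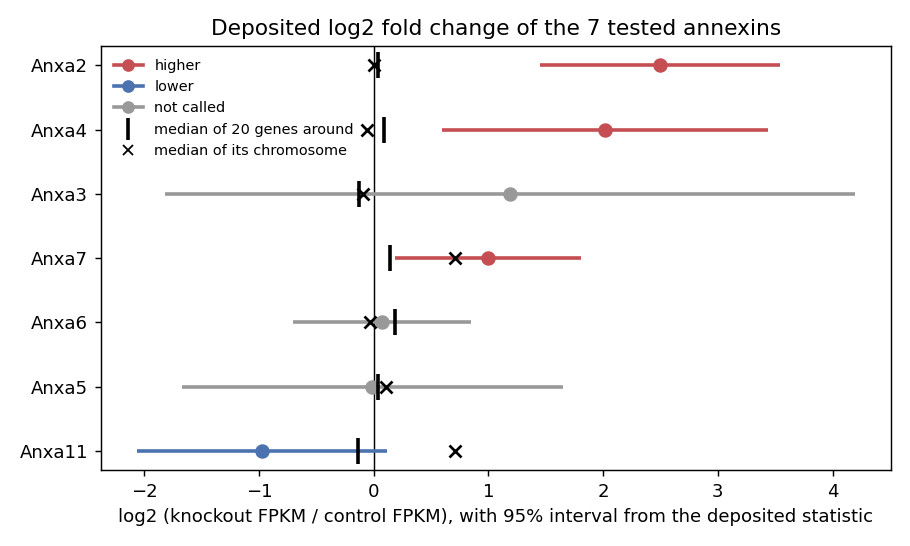
Deposited log2 ratio of knockout over control FPKM for the 7 tested annexins (points, coloured by the authors' call) with the 95% interval derived from the deposited statistic. Black bars mark the median log2 ratio of the 20 expressed genes around each annexin and crosses the median of its chromosome; the intervals of Anxa2, Anxa4 and Anxa7 lie above 0 and that of Anxa11 reaches 0.12.

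The members that were not tested were near the lower end of the table. Anxa1, whose product is an anti-inflammatory ligand of formyl peptide receptors, has a value of 0 for control cells and 0.308 FPKM for the knockout in the authors' deposited table. Anxa9, an annexin that has lost most of its calcium-binding residues, stood at 0.0627 and 0.533 FPKM in the same table, and shares its locus entry with Fam63a, which reached 32.1 FPKM. For Anxa8 the authors' deposited table lists 1.05 FPKM for control cells and 0 for the knockout, and the gene shares its locus entry with 2 other genes, both listed at 0. Of the annexins outside the members, Anxa10 was listed at 0 in both groups, and Anxa13 had 1.13 FPKM in the knockout and 0 in control cells. With the depth unknown these low values carry no interval, and no fold is given for a gene listed at 0.

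Because FPKM is per transcript length, levels can be set beside each other. In control cells the order was Anxa6 at 44.7 FPKM, Anxa11 at 24.6, Anxa7 at 23.3, Anxa2 at 13.2, Anxa5 at 4.83, Anxa4 at 3.89 and Anxa3 at 1.37 FPKM. In knockout cells it was Anxa2 at 74.5 FPKM, Anxa6 at 47.0, Anxa7 at 46.4, Anxa4 at 15.7, Anxa11 at 12.5, Anxa5 at 4.79 and Anxa3 at 3.11 FPKM. Anxa2 thus went from the fourth to the first place, with 0.295 FPKM per FPKM of Anxa6 in control and 1.58 in knockout cells. With pooled values, differences between neighbours in these orders, such as Anxa11 and Anxa7 in control or Anxa6 and Anxa7 in knockout cells, cannot be tested. Summed over the 10 members, annexin FPKM came to 117 in control cells and 205 in the knockout, 1.75-fold higher, and 1.26-fold higher without Anxa2, a set chosen after its value was seen. Anxa2 made up 11.3% of the sum in control and 36.4% in knockout cells, and Anxa11 21.0% and 6.10%. In bulk RNA, fewer cells with a transcript and less transcript per cell cannot be told apart.

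**Figure D3:**
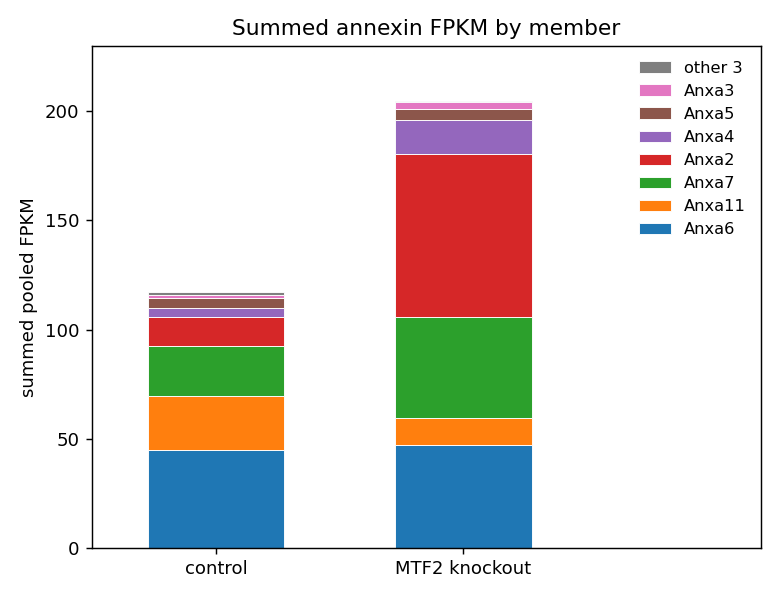
Summed pooled FPKM of the 10 annexin genes in control and MTF2 knockout cells, stacked by member, with Anxa1, Anxa8 and Anxa9 joined as the other 3. The bars reach 117 FPKM and 205 FPKM, and the Anxa2 block grows from 13.2 to 74.5 FPKM.

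Chromosome 14 stood higher at its median in knockout cells, so each member was set beside its surroundings. Chromosome 14, which carries Anxa7, Anxa11 and Anxa8, had a median log2 ratio of 0.71 over 405 genes with 1 FPKM or more in either group, and 30.2% of its tested genes were called higher. The genes next to these members did not share that level. The 10 such genes on each side of Anxa7 had a median log2 ratio of 0.14 with 1 called higher and 0 lower, and those around Anxa11 had a median of -0.14 with 0 higher and 2 lower. Anxa7, with a log2 ratio of 0.98, stood above 19 of its 20 neighbours, and Anxa11, with -0.95, stood below 18 of 20. Between them lie 5.36 Mb with 22 expressed genes, whose median log2 ratio was 0.15.

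Anxa2 and Anxa4 stood above all 20 of their neighbours. The median log2 ratio around Anxa2 was 0.04, against 2.45 for Anxa2 itself, and around Anxa4 it was 0.09, against 1.89. Chromosomes 9 and 6 had medians of -0.0019 and -0.06. The nearest tested genes on either side were not called for any of the 4 called members. Ice2, 20.5 kb from Anxa2, stood at 1.25 and 2.61 FPKM in control and knockout cells, and Gmcl1, 3.46 kb from Anxa4, at 17.1 and 10.9 FPKM, both from the authors' deposited table. Next to Anxa11, Zcchc24 stood at 6.54 and 3.42 FPKM (Cuffdiff q = 0.0585, authors' deposited table), a log2 ratio of -0.84 beside -0.95 for Anxa11. On the other side of Anxa11, Slmap stood at 11.3 and 10.3 FPKM (Cuffdiff q = 0.801, authors' deposited table), a log2 ratio of -0.13.

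**Figure D4:**
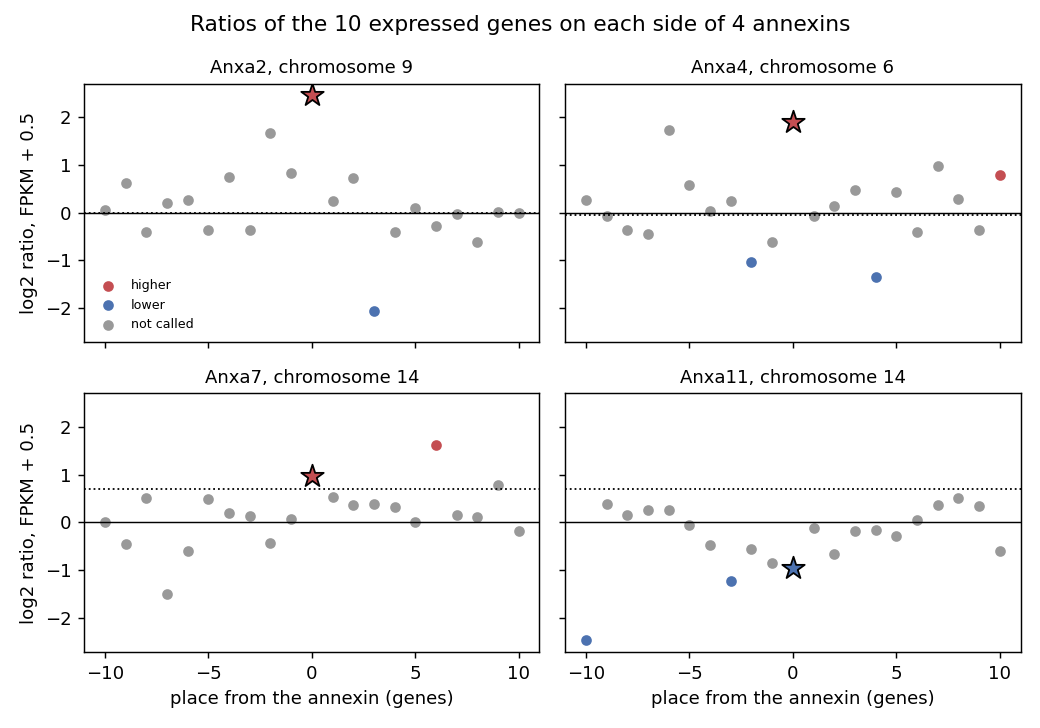
Log2 ratios (knockout over control, FPKM + 0.5) of the 10 expressed genes on each side of Anxa2, Anxa4, Anxa7 and Anxa11 (circles, coloured by the authors' call), with the annexin as a star and its chromosome's median as a dotted line. The stars of Anxa2 and Anxa4 lie above all neighbours, and the neighbours of Anxa7 and Anxa11 mostly lie below the chromosome 14 median of 0.71.

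The EF-hand proteins that bind annexins differed in part. Of the 13 tested genes in this list 2 passed as higher and 0 as lower, which is 15.4% higher against 6.90% of all tested genes. Their median log2 ratio was 0.74, against -0.0035 over all tested genes. Many of them are not spread over the genome. S100a1, S100a13, S100a16, S100a6, S100a11 and S100a10 lie on chromosome 3 between 90511034 and 93564643 (mm10). Their log2 ratios were 2.65, 2.25, 0.97, 1.91, 0.27 and 0.97 in that order. Whether such neighbours differ separately was not tested. S100a10, which encodes the partner of annexin A2, rose from 162 to 318 FPKM (1.96-fold, interval 1.13 to 3.38-fold, Cuffdiff q = 0.0012 in the authors' deposited table). As Anxa2 differed more, S100a10 went from 12.3 to 4.26 FPKM per FPKM of Anxa2, so its transcripts were in excess of those of Anxa2 in both groups. Pdcd6, which encodes the annexin A11 partner ALG-2, rose from 16.1 to 39.7 FPKM (Cuffdiff q = 0.0012, authors' deposited table), while Anxa11 was lower.

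The other partners were not called. Sri, which encodes sorcin, stood at 13.9 and 14.6 FPKM in control and knockout cells, and S100a11, whose product binds annexin A1, at 11.3 and 13.8 FPKM in the authors' deposited table. S100a6, whose product binds several annexins, stood at 9.72 and 37.9 FPKM (Cuffdiff q = 0.392), and S100a1 at 8.04 and 53.2 FPKM (Cuffdiff q = 0.288), per the authors' deposited table. Their ratios of 3.90 and 6.61 are close to or above those of Anxa4 and Anxa2, and their intervals from the deposited statistic, 1.00 to 15.2-fold and 1.99 to 22.0-fold, start at 1 or above it. For S100a1 the interval thus excludes no difference while the q does not pass, and for Anxa11 it is the other way round.

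The cell-surface plasminogen system, which the annexin A2 and S100A10 complex binds, had only 4 tested genes, 2 of which passed as higher and 0 as lower, beside 6.90% and 6.03% of all tested genes. Plaur, the urokinase receptor gene, rose from 10.3 to 50.2 FPKM and Plat, the tissue plasminogen activator gene, from 0.556 to 7.72 FPKM, (Cuffdiff q = 0.0012 and 0.0268, authors' deposited table). Plat lies on chromosome 8 among genes that were higher together, with a median log2 ratio of 1.09 over its 20 neighbours, of which 9 were called higher. Plgrkt and Serpine2, the other tested genes of this list, were not called. Plgrkt went up from 1.58 to 2.90 FPKM (Cuffdiff q = 0.880, authors' deposited table). Serpine2 went down from 4.36 to 1.95 FPKM (Cuffdiff q = 0.223, authors' deposited table). Plau, the urokinase gene, and Plg, the plasminogen gene, were under 0.5 FPKM in both groups and were not tested. Fpr1 and Fpr2, the annexin A1 receptor genes, were listed at 0 in both groups.

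**Figure D5:**
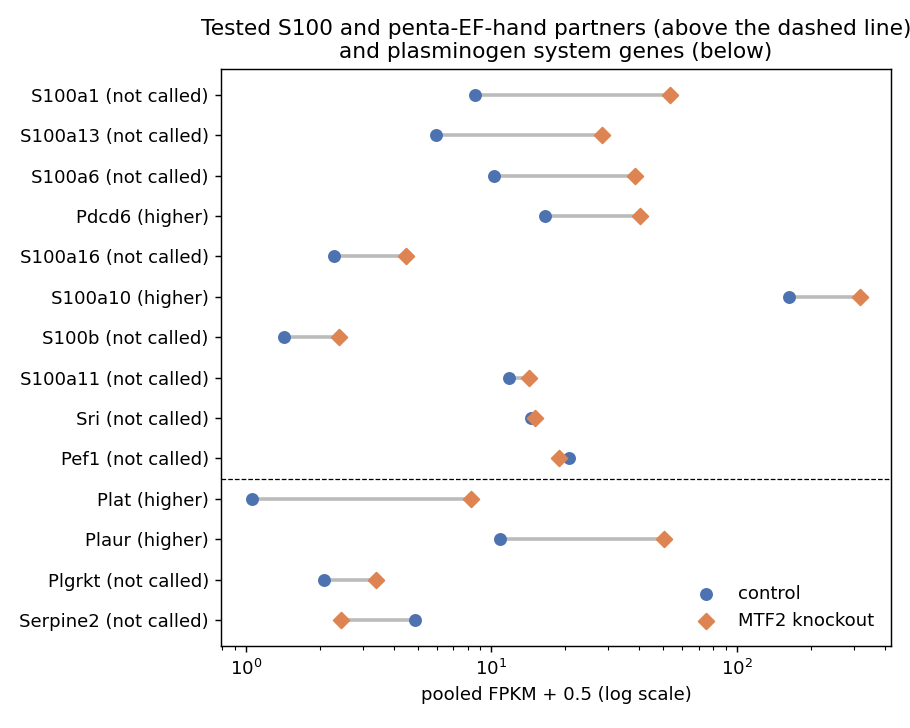
Pooled FPKM + 0.5 (log axis) of the tested S100 and penta-EF-hand partner genes, above the dashed line, and plasminogen system genes, below it, in control (circles) and MTF2 knockout cells (diamonds), with the authors' call beside each name. S100a10 has higher levels than any other tested S100 gene in both groups, and S100a1, S100a13 and S100a6 have wide differences that were not called.

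Among membrane repair and caveola genes, 18 were tested, of which 2 passed as higher (11.1%) and 1 as lower (5.56%), near the 6.90% and 6.03% of all tested genes, and the median log2 ratio was 0.08. Capn2, a calpain protease catalytic subunit gene, rose from 4.87 to 24.8 FPKM and Ptrf, the caveola coat gene, from 51.6 to 96.6 FPKM, (Cuffdiff q = 0.0012 and 0.00518, authors' deposited table). Chmp4c, an ESCRT-III gene, fell from 7.24 to 3.67 FPKM (Cuffdiff q = 0.0214, authors' deposited table). Cav1, Cav2 and Cav3, the caveolin genes, were listed at 0 in both groups. Pdcd6ip, which encodes the ALG-2 partner ALIX, stood at 17.9 and 27.5 FPKM and was not called.

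Markers of primitive endoderm moved in the same comparison as the annexins. Of 15 tested markers 12 were called higher and 0 lower, beside 6.90% and 6.03% of all tested genes, and the 18 listed markers summed to 352 FPKM in control cells and 1789 FPKM in the knockout. Gata4, Dab2, Col4a1 and Col4a2 were the called genes with the largest log2 ratios once 0.5 FPKM was added, from 2.17 to 71.7, 0.526 to 30.3, 6.49 to 185 and 4.86 to 159 FPKM in the authors' deposited table. Gata4 lies on chromosome 14, where 30.2% of tested genes were called higher, and Dab2 on chromosome 15, where 7.54% were. Col4a1 and Col4a2 share a locus entry on chromosome 8, where 11.5% of tested genes were called higher. None of the 18 was listed at 0 in both groups. Of 6 tested trophectoderm markers, 2 were called higher (33.3%), the keratin genes Krt8 and Krt18, and 1 lower, Tfap2c. Of 5 tested fibroblast markers, 1 was called higher, Thbs1, and 1 lower, Fbln1, and the 12 listed summed to 48.3 FPKM in control cells and 34.6 FPKM in the knockout, with 3 at 0 in both groups. The 10 trophectoderm markers summed to 67.7 FPKM in control cells and 223 FPKM in the knockout. Krt8 and Krt18, which many simple epithelia express, made up 15.7 and 170.2 FPKM of these sums, and the other 8 markers, a split chosen after the values were seen, came to 52.0 and 53.0 FPKM. The part of these markers' cells in the annexin values was not tested.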

How the data were processed

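Poly-A RNA-seq of control and MTF2 knockout E14 cells (3 libraries each) was compared through 1 gene table with 22462 genes. FPKM values were made by the authors and pooled per group, per the file headers. Per the submitters' processing notes, Cuffdiff 2.2.1.3, TopHat2 2.1.0, Bowtie 1.0 and deepTools were used with mm10 and mm9, without saying which build went with which assay. How FPKM were scaled between libraries was not stated there. Their deposited log2 values are ratios of knockout to control FPKM with nothing added. The p-value and q-value were deposited by the authors, and q equals a Benjamini-Hochberg adjustment of p over 11362 genes with status OK. The deposited test statistic is a score by the authors. Intervals here are log2 fold change ± a normal 95% range of log2 fold change over that score. The authors' p tend to be smaller than this score gives (median normal z of p 1.74 times the score over 10807 genes). At the median the intervals are thus wider than the p-values imply. For S100a1, S100a6 and some uncalled primitive endoderm markers it is the other way, and their intervals are narrower than their p-values imply. Depth per library is unknown.

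Calls are the authors' (status OK, q at or under 0.05), and no test across replicates could be made, so how q reflects the spread between libraries could not be checked. The log2 ratio used for medians adds 0.5 FPKM. Surroundings are the 10 genes on each side with 1 FPKM or more in either group. Starts were moved from 0-based to 1-based, and 12 of 12 annexins lay on the RefSeq GRCm38.p6 chromosome, 9 with both ends within 2 kb, so positions are given as mm10. Promoters were RefSeq's, cut to the 250 bases before the start, as the rest lies in the transcript; protein features and ChIP-seq were not analysed here. Some genes of the EF-hand list are counted but not reported here by name. Members and lists were chosen with earlier results of these data known. Named genes were the members, Anxa10, Anxa13, Mtf2, up to 4 calls per list and direction, and 5 partner genes. Some nearest tested neighbours of called members were also named. S100a1, S100a13, S100a16, Plgrkt, Serpine2, caveolin genes, Pdcd6ip, Plau, Plg, Fpr1, Fpr2 and Fam63a were named after their values were seen. Analysis used Python 3.11.15, pandas 2.3.3 and scipy 1.17.1, and the adjustment was checked on simulated data.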

Additional observations from a re-analysis of the deposited data

How the results depend on the processing

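Anxa2, Anxa4 and Anxa7 were called higher at a q of 0.01, with recomputed adjustment and with an FPKM minimum of 1 or 5, and 2 members were called at a 2-fold minimum or without chromosome 14. The Cuffdiff q of Anxa2, Anxa4 and Anxa7, 0.0012, is the smallest the authors deposited, so the stricter q does not separate them. With a normal p from the deposited statistic, 1 member was called higher, Anxa2 (adjusted q 0.00080), and the adjusted q was 0.206 for Anxa4 and 0.379 for Anxa7. The 1 lower call, Anxa11, became 0 at a q of 0.01, at a 2-fold minimum, with the normal p (adjusted q 0.709) and without chromosome 14, which carries it. The median log2 ratio of the members, 0.78, was 1.06 with 0.1 FPKM added, 0.46 with 1 FPKM added, 1.09 with none, 0.51 over members at 1 FPKM or more and 0.95 over tested members. It moved by 0.1 or less under both rescalings and without chromosome 14. The log2 ratio of the sum, 0.81, was 0.96 as a share of all FPKM and, in an alternative chosen after seeing the data, 0.33 without Anxa2. Centred on its chromosome, the log2 ratio of Anxa7 was 0.27 and that of Anxa11 -1.65. The genes around them had medians of 0.14 and -0.14, so this centring takes off a level those genes did not share. The ratios of Anxa2 and Anxa4 ranged from 2.41 to 2.60 and from 1.77 to 2.03 over pseudocounts and scalings. The 2 lower calls in the partner lists became 0 at a q of 0.01, and the 7 higher ones 5. No paired analysis was possible because the table holds 1 pooled value per group, and for the same reason leaving out each replicate was not run. Genes under about 1 FPKM were not tested by the authors, and unknown depth limits what can be said of Anxa1, Anxa8 and Anxa9.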

Other observations

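The C2-domain proteins, the other large family that binds membranes when calcium rises, had shares of calls near those of all tested genes. Their list had 20 tested genes, of which 1 passed as higher and 1 as lower, 5.0% each way beside 6.90% and 6.03% of all tested genes, and a median log2 ratio of -0.21. Cpne5, a copine gene, fell from 11.2 to 6.09 FPKM (Cuffdiff q = 0.0202, authors' deposited table). Cpne8, another copine gene, had 1.54 FPKM in the knockout and a listed 0 in control cells (Cuffdiff q = 0.0258, authors' deposited table). Myof, the ferlin gene myoferlin, stood at 23.2 and 20.8 FPKM and was not called, and Esyt1, an endoplasmic reticulum tether gene, stood at 27.7 and 40.0 FPKM and was not called; both were named after their values were seen. Over this list and the EF-hand, membrane repair and plasminogen lists together, 55 genes were tested, 7 were called higher and 2 lower, and the median log2 ratio was 0.05.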
